A study of Mus musculus with 6 samples.

Results

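The 9 genes followed here, Cdkn1a, Ccng1, Mdm2, Trp53inp1, Zmat3, Pmaip1, Bbc3, Eda2r and Bax, are targets of p53 or carry out cell death. Every probe set that the platform annotation gives to one of these symbols was taken. That gave 14 probe sets for 8 of the 9 genes, out of 45101 on the array, and Bax is not analysed here. Of the 14, 12 passed a filter on dim signal and were tested, among 33820 probe sets tested in all. The remaining 2, one each of Cdkn1a and Mdm2, had group means below the background level in all 3 groups and are given as signals only.

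p53 is a transcription factor that accumulates in damaged or stressed cells. Its targets stop the cell cycle, feed back on p53 itself, or start death through the mitochondria. In the early mouse embryo Mdm2 holds p53 down, and embryos without Mdm2 die unless p53 is lost too. Flk1, the receptor for vascular endothelial growth factor encoded by Kdr, is needed for endothelial and blood cells to form.

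The study looked for genes enriched in endothelium by hybridising embryonic mouse RNA to Affymetrix arrays. Each of its 3 groups has 2 arrays: Flk1-positive cells, wild-type (WT) embryos and Flk1 knockout (Flk1 KO) embryos. All are of the ICR strain, staged at 8.5 days post coitum with 3 to 4 somites, when blood does not yet circulate. The embryo groups are whole embryos proper. The design text also names Flk1+/GFP embryos, and the labels do not say whether the Flk1-positive cells came from these. The sources used here give neither the method by which those cells were selected, nor the knockout allele, nor whether embryos were pooled. No label states that arrays within a group are of different animals, so the p-values reflect the spread of these samples alone, and that spread may be technical.

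Signals are linear, and 57.4 was taken as background, from 80 probe sets of olfactory and vomeronasal receptors; 54.3% to 57.9% of probe sets exceeded it on each array. The number of arrays limits the precision. Kdr gave 544 and 546 in WT embryos, 29.5 and 63.8 in Flk1 KO embryos and 3309 and 3328 in Flk1-positive cells. It was at least 6.90-fold lower in KO embryos than in the wild type (adjusted p = 0.046 by limma), the direction its genotype label gives, although where its probes lie relative to the deletion is not known here. That call was lost in 12 of 16 alternatives (limma, adjusted p up to 0.386), among them leaving out any 1 array, while the difference stayed between -3.49 and -2.31 (log2). Against WT embryos, Flk1-positive cells had 12 of 12 endothelial and 6 of 6 primitive erythroid markers called higher, and all markers of neuroectoderm (7), somite (6), cardiomyocyte (7), gut endoderm (6) and yolk sac endoderm (6) called lower. Erythroid signals summed to 42951 to 44451 on the Flk1-positive arrays, 529 to 1135 on WT and 217 to 369 on KO arrays. For the transferrin receptor control, the 3′ signal exceeded the 5′ signal by 1.26 and 1.35 (log2) on the Flk1-positive arrays and by 0.94 to 1.05 on the other 4 arrays. The beta-actin control went the other way, at 0.26 and 0.29 on the Flk1-positive arrays and 0.47 to 0.58 on the other 4. The Gapdh control gave -0.37 to -0.32 over all arrays.

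The genes are grouped as p53 targets, so the 250 bases before the start site are shown for the 3 measured genes whose listed promoter holds a p53 half-site, and for Eda2r, which holds none and had the largest upward difference in Flk1-positive cells. The sequences are from RefSeq (GRCm38.p6), 5′ to 3′ on the strand of the gene. Capitals mark each match to the 10-base p53 half-site, a motif that reads the same on both strands. They lie at chr17:29090729-29090978 (Cdkn1a, plus strand), chr11:40755287-40755536 (Ccng1, minus strand), chr10:117710759-117711008 (Mdm2, minus strand) and chrX:97377210-97377459 (Eda2r, minus strand).
Cdkn1a: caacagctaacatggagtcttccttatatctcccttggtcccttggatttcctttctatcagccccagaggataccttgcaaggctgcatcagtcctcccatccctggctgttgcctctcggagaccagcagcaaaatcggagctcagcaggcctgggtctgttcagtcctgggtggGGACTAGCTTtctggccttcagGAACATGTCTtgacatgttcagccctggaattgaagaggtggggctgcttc
Ccng1: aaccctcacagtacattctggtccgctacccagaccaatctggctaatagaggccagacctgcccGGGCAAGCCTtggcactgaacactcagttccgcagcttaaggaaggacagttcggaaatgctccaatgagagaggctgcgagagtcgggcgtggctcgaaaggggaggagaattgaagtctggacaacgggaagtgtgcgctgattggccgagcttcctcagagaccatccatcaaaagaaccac
Mdm2: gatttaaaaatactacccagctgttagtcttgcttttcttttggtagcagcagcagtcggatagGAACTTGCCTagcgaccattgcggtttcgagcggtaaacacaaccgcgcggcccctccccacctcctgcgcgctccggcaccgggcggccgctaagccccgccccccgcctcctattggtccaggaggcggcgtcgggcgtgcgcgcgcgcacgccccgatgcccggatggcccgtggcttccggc
Eda2r: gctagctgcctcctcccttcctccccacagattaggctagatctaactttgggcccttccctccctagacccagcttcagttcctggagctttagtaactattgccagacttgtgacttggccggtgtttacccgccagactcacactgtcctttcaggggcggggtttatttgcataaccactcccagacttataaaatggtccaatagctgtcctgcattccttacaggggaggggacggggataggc

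Cdkn1a holds 2 half-sites, which begin 73 and 51 bases before the start site and lie within the 13 bases of each other that a full site allows. The single half-site of Ccng1 begins 185 bases before the start and that of Mdm2 186 bases before. The printed Cdkn1a window belongs to the upstream one of its 2 listed start sites. The window of the downstream start and the 3 Bbc3 promoters in the table hold none. Among 32851 promoters of this length, 7.13% hold a half-site and 0.0639% a full site. A match describes letters only. The p53 elements known from the first intron of Mdm2 lie outside this window.

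The first question was whether Flk1 KO embryos carry more of these transcripts. No p53 target or death gene passed the test between Flk1 KO and WT embryos, in either direction. Differences of the 12 probe sets ran from -0.39 (Pmaip1) to 0.25 (Bbc3) on the log2(signal + 21.61) scale, and the median over the 8 genes was -0.02, as it was over all probe sets tested. The share called among all probe sets was itself small: 0.0798% in all, of which 0% higher and 0.0798% lower. Of the 12, 0 reached an unadjusted p under 0.05 (limma), where 8.39% of all probe sets did, and the smallest unadjusted p among the 12 was 0.152 (Pmaip1, adjusted p = 0.747). On the log2(signal + 21.61) scale, the 95% interval of the difference lay within 2-fold in both directions for 12 of 12 probe sets, and for 77.1% of all tested. Ratios of the signal itself lie further from equality, most for dim probe sets, so this does not place every signal ratio within 2-fold. The outermost bounds were -0.97 for Pmaip1 and 0.89 for the dimmer Trp53inp1 probe set. With 2 arrays a group, any difference inside the interval of a probe set remains compatible with its values.

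Cdkn1a encodes p21, the inhibitor of cyclin-dependent kinases and the most used readout of p53 activity. Its signals (1424638_at) were 230.0 and 220.3 in WT embryos, 223 and 237 in Flk1 KO embryos, and 192 and 177 in Flk1-positive cells. The KO and WT arrays interleaved, and both Flk1-positive arrays lay below all 4 embryo arrays. KO differed from WT by 0.03 ± 0.13 (log2, SE), a fold of 1.02 with a 95% interval of 0.82 to 1.27 (limma, adjusted p = 0.972). Of the promoters printed, that of Cdkn1a is the one with a full site.

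Ccng1 encodes cyclin G1, which brings a phosphatase to Mdm2. Its brightest probe set (1420827_a_at) gave 1160.4 and 942 in WT embryos, 801 and 1215 in Flk1 KO embryos, and 1957 and 2180.2 in Flk1-positive cells. The second (1450016_at) gave 530.4 and 503 in WT, 462 and 584 in KO embryos and 1185 and 1089 in Flk1-positive cells. The last (1450017_at) gave 516 and 502 in WT, 387 and 541 in KO embryos and 1025 and 1118 in Flk1-positive cells. On all 3, the KO arrays lay on either side of the WT arrays and both Flk1-positive arrays lay above every embryo array. KO minus WT was -0.08 ± 0.24, 0.01 ± 0.16 and -0.15 ± 0.19 (log2) in that order. The 3 probe sets were designed on the same transcript record and are not independent.

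Mdm2 is the ubiquitin ligase that marks p53 for degradation and is itself a p53 target. Its brighter probe set (1423605_a_at) gave 986 and 780.4 in WT, 797 and 802 in Flk1 KO embryos and 1205 and 990.3 in Flk1-positive cells. The other tested one (1427718_a_at) gave 638 and 676 in WT, 651 and 606 in KO embryos and 874 and 824 in Flk1-positive cells. KO and WT arrays overlapped on both, with KO minus WT at -0.13 ± 0.18 (interval -0.57 to 0.31) and -0.06 ± 0.13 (interval -0.38 to 0.26), while both Flk1-positive arrays lay above every embryo array. Flk1-positive cells exceeded WT embryos by 0.31 ± 0.18 and 0.36 ± 0.13 (log2), which did not pass (limma, adjusted p = 0.257 and 0.096). The second was called against WT with the filter at the 50th percentile (limma, adjusted p = 0.0436) or with a variance trend on intensity (adjusted p = 0.0417).

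Trp53inp1 encodes a nuclear protein that promotes p53 activity and autophagy. Its brighter probe set (1416926_at) gave 607 and 779.7 in WT, 606 and 806 in Flk1 KO embryos and 547 and 442 in Flk1-positive cells. The KO arrays enclosed the WT arrays and the Flk1-positive arrays were the lowest 2. KO minus WT was 0.02 ± 0.22 (interval -0.52 to 0.57), and Flk1-positive cells minus WT was -0.47 ± 0.22 (interval -1.01 to 0.08; limma, adjusted p = 0.179). The dimmer probe set (1416927_at), near background, gave 53.8 and 82.6 in WT, 71.1 and 88.8 in KO embryos and 89.2 and 48.8 in Flk1-positive cells. These overlapped throughout, and KO minus WT was 0.19 ± 0.28.

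Zmat3, a zinc finger protein that binds RNA, gave 966 and 981 in WT, 1049 and 1064 in Flk1 KO embryos, and 623 and 576 in Flk1-positive cells (1449353_at). The 3 groups did not overlap, with KO embryos highest and Flk1-positive cells lowest. The step from WT to KO was 0.12 ± 0.12 (interval -0.19 to 0.42) and did not pass (limma, adjusted p = 0.864).

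**Figure D1:**
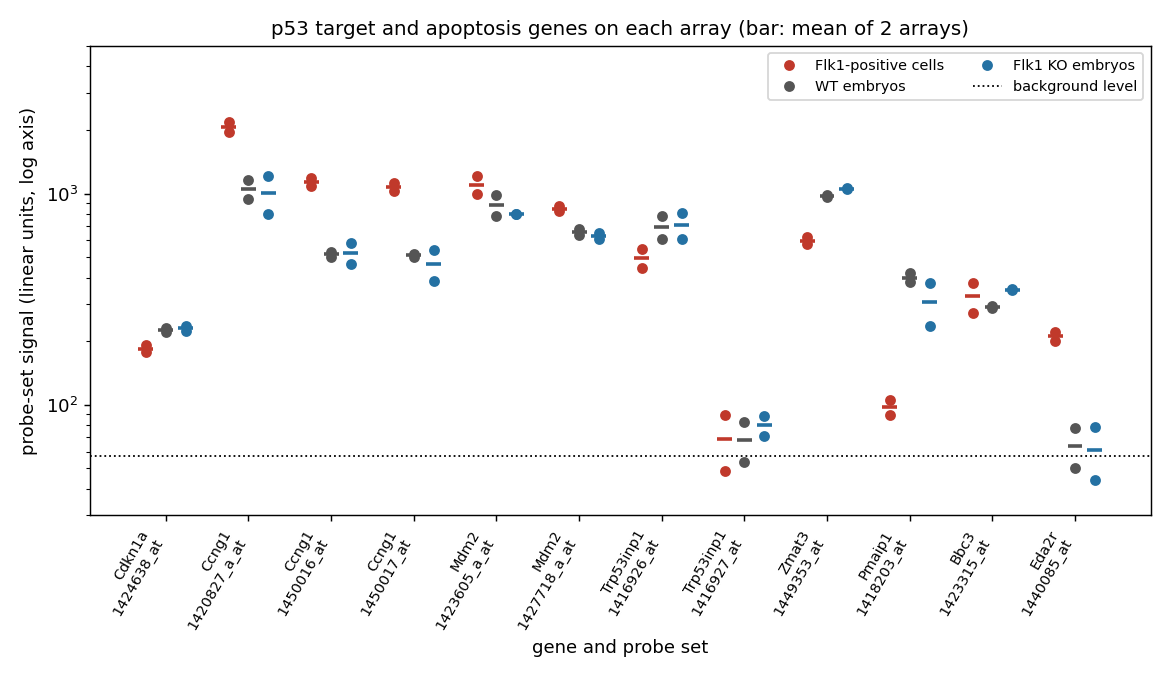
Linear probe-set signal (log axis) of the 12 tested probe sets on each of the 6 arrays, with points for arrays and bars for the mean of 2 arrays; the dotted line is the background signal of 57.4. Flk1-positive cells stand above every embryo array for Ccng1, Mdm2 and Eda2r. They stand below every one for Cdkn1a, Zmat3, Pmaip1 and the brighter Trp53inp1 probe set (1416926_at).

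Among the death genes, Pmaip1 encodes Noxa, a BH3-only protein that neutralises Mcl1. It gave 418 and 382 in WT embryos, 237 and 378 in Flk1 KO embryos, and 89.2 and 105 in Flk1-positive cells (1418203_at). The 3 groups did not overlap, but the second KO array lay just under the WT arrays. KO minus WT was -0.39 ± 0.23 (interval -0.97 to 0.20). That value was -0.07 without KO replicate 1 and -0.70 without KO replicate 2, so it rests on 1 array.

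Bbc3 encodes Puma, a second BH3-only protein induced by p53. It gave 294 and 288 in WT, 348 and 353 in Flk1 KO embryos, and 379 and 272 in Flk1-positive cells (1423315_at). Both KO arrays lay above both WT arrays, and the Flk1-positive arrays enclosed them all. KO minus WT was 0.25 ± 0.18 (interval -0.20 to 0.70; limma, adjusted p = 0.795), and Flk1-positive cells minus WT was 0.13 ± 0.18 (interval -0.32 to 0.58).

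Eda2r, a member of the TNF receptor family that binds ectodysplasin A2, gave 50 and 77.8 in WT, 43.8 and 78.4 in Flk1 KO embryos, and 201 and 222 in Flk1-positive cells (1440085_at). The lower array of each embryo group was under background, and both Flk1-positive arrays lay well above. KO minus WT was -0.06 ± 0.26 (interval -0.72 to 0.60). The added constant of 21.61 understates differences of a gene this dim.

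KO and WT arrays did not overlap for 2 probe sets that were higher in KO (Bbc3 and Zmat3), where 16.7% of all probe sets did so, and for 1 that was lower (Pmaip1), where 21.4% did. KO replicate 1 lay below KO replicate 2 on 11 of the 12 member probe sets, where it did on 46.2% of all tested, and Mdm2 1427718_a_at was the exception. The median gap between arrays of a group, over all probe sets tested, was 0.233 (log2) for KO, 0.169 for Flk1-positive cells and 0.167 for WT. Endothelial markers were called lower in KO embryos for 6 of 12 genes, with summed signals of 1027 to 1045 against 3833 to 4069 in WT. Cardiomyocyte markers were higher on both KO arrays for 7 of 7 genes, with sums of 25231 to 37598 against 18526 to 19216, and none was called. Sums were also higher for yolk sac endoderm (25024 to 26417 against 17595 to 19967) and mural and mesenchymal markers (12106 to 14002 against 9758 to 10090.5). Somite markers summed to 4005 to 4324 against 3645 to 3682. Sums were lower in KO embryos for neuroectoderm, gut endoderm and the blood lists. No gene of these further lists was called. The part of these tissues in the member values was not tested. In bulk RNA, fewer cells of a type and less RNA per cell cannot be told apart.

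In Flk1-positive cells the group split. Ccng1 and Eda2r were higher than in WT embryos, and Pmaip1 and Zmat3 were lower, while Cdkn1a, Mdm2, Trp53inp1 and Bbc3 did not pass the test. Of the 12 probe sets, 4 were called higher, where 11.6% of all probe sets were, and 2 lower, where 14.4% were. Together 6 of 12 were called, against 26% of all. The 4 higher include every Ccng1 probe set, and these are not independent. By gene, 2 of 8 were called higher and 2 lower, where 12.5% and 18% of all genes were. Arrays did not overlap for 6 higher and 4 lower probe sets, against 31.3% and 36.8% of all. The median difference over the 8 genes was -0.06 (log2), beside -0.04 for all probe sets. Against Flk1 KO embryos the same 6 probe sets were called in the same directions. These were 4 higher and 2 lower, where 13.8% and 15.4% of all probe sets were, or 29.2% in all. By gene, 2 of 8 were higher and 2 lower, where 13.2% and 19.6% of all genes were. Both comparisons use the same Flk1-positive arrays, so the second adds no independent test of those cells.

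Eda2r had the largest upward difference, 1.46 ± 0.26 (log2) or 2.76-fold over WT embryos (limma, adjusted p = 0.0138) and 1.52 ± 0.26 over KO embryos (adjusted p = 0.0109). Its call against WT was lost without Flk1-positive replicate 1, Flk1-positive replicate 2 or WT replicate 1 (adjusted p = 0.0507, 0.063 and 0.0736), and that against KO without Flk1-positive replicate 2 (limma, adjusted p = 0.0512). Ccng1 rose by 1.11 ± 0.16 over WT on 1450016_at (limma, adjusted p = 0.00659), which kept its call in each of 15 alternatives. Its brightest probe set rose by 0.97 ± 0.24 (adjusted p = 0.0347) and lost the call in 7 of 16, with adjusted p up to 0.158. The last probe set, 1450017_at, rose by 1.04 ± 0.19 (limma, adjusted p = 0.0134) and lost the call without any 1 of the Flk1-positive or WT arrays (adjusted p = 0.0502 to 0.0747). Over KO embryos the 3 differences were 1.05 ± 0.24, 1.10 ± 0.16 and 1.19 ± 0.19, all called, and the first lost its call without Flk1-positive replicate 1, Flk1-positive replicate 2 or KO replicate 1 (limma, adjusted p = 0.0729, 0.0996 and 0.0645).

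Pmaip1 had the largest difference of the members, 3.56-fold lower than in WT embryos (-1.83 ± 0.23; limma, adjusted p = 0.00445) and 2.72-fold lower than in KO embryos (-1.44 ± 0.23; adjusted p = 0.0088). It kept both calls in each of 16 alternatives. Zmat3 fell by 0.68 ± 0.12 against WT (limma, adjusted p = 0.0137) and by 0.80 ± 0.12 against KO embryos (adjusted p = 0.00755). Its call against WT was lost without any 1 of the Flk1-positive or WT arrays (adjusted p = 0.0551 to 0.0805), and that against KO was kept in each of 16 alternatives. Cdkn1a differed from WT by -0.26 ± 0.13 (interval -0.58 to 0.06; adjusted p = 0.193, limma). The Flk1-positive arrays differ from embryos in nearly every tissue marker listed above, and the part of cell makeup in these differences was not tested.

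**Figure D2:**
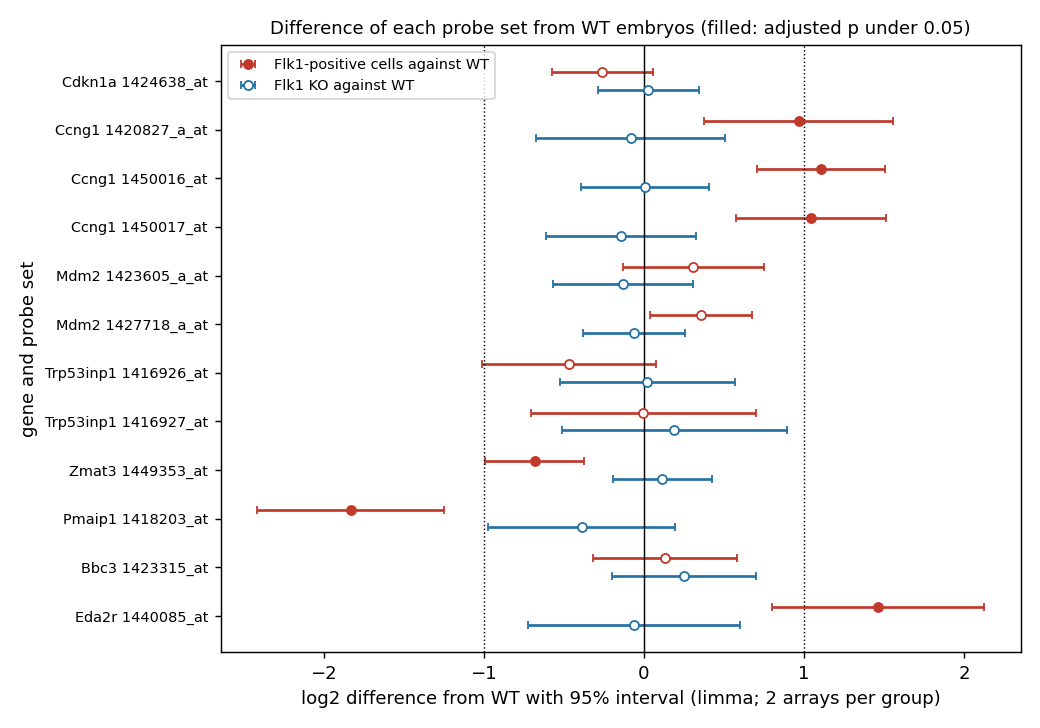
Difference of each of the 12 probe sets from WT embryos on the log2(signal + 21.61) scale, with its 95% interval from limma. Filled points had an adjusted p under 0.05 and dotted lines mark 2-fold on that scale. No Flk1 KO point is filled and all 12 of their intervals lie between the dotted lines, while 6 points of Flk1-positive cells are filled, 4 to the right and 2 to the left.

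The untested probe sets gave 7.6 to 35.9 for Cdkn1a (1421679_a_at) and 1.8 to 43.4 for Mdm2 (1457929_at) over the 6 arrays. Every value lay below the background of 57.4, and no order is read from them.

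The rest of the pathway was read from 6 further lists, in which 88 of 100 genes could be tested. Between Flk1 KO and WT embryos 0 of the 88 passed, where 0.154% of all genes did, and 5 (5.68%) had an unadjusted p under 0.05 (limma), where 6.28% of all genes did. Those 5 were Atf3, Bcl2l2, Chac1 and Srxn1, each lower in KO embryos, and Ddit3, higher. Atf3, a stress-induced transcription factor, gave 232 and 225 in WT and 149.7 and 126 in KO embryos. Its difference was -0.65 ± 0.14 (log2; limma, adjusted p = 0.32). Ddit3, which encodes the stress factor CHOP, gave 109 and 118 in WT and 243 and 163 in KO embryos. Its difference was 0.71 ± 0.23 (limma, adjusted p = 0.493). Atf3 and Ddit3 had the 2 largest differences among the unfolded protein and amino acid stress genes, with opposite signs, and neither passed.

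Medians of the lists in KO against WT embryos were 0.07 for 13 regulators of p53, 0.02 for 24 other p53 targets, 0.11 for 14 other BCL2 family genes, -0.14 for 17 caspases and execution genes, -0.05 for 12 unfolded protein and amino acid stress genes, and -0.13 for 8 oxidative stress genes. Over all probe sets the median was -0.02. Mdm4, the partner of Mdm2 in holding p53 down, differed by -0.11 ± 0.13 (limma, adjusted p = 0.88), and Trp53 itself is not analysed here. Among genes with a group mean above background, the regulators with the largest differences were Trp63 at 0.49 ± 0.20 and Ppm1d, a phosphatase that shuts p53 signalling off, at 0.37 ± 0.17. Among other targets these were Sesn1 at -0.55 ± 0.29 and Plk2 at -0.35 ± 0.16. The Sesn1 value ran from -0.98 to -0.12 over the alternatives, and another Sesn1 probe set had the opposite sign, at 0.25 ± 0.14. For Ppm1d, the other probe set gave 639 and 777 in KO and 685 and 715 in WT embryos, which overlapped. Bad (0.47 ± 0.31) and Bcl2l2 (-0.44 ± 0.13) led the BCL2 family, and Fadd (-0.27 ± 0.14) and Birc2 (-0.26 ± 0.13) the death execution genes. None of these passed.

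In Flk1-positive cells, genes were called in both directions across these lists. Among the 88 genes, 17 were called higher than in WT embryos and 10 lower, where 12.5% and 18% of all genes were, and against KO embryos 19 and 13, where 13.2% and 19.6% were. Other p53 targets had 4 of 24 higher and 3 lower. Without single arrays these became 1 to 4 higher and 2 lower. Plk2, a polo-like kinase, gave 5759 and 5353 in Flk1-positive cells against 562 and 718 in WT embryos, with 503 and 486 in KO embryos. It rose by 3.09 ± 0.16 (log2) over WT (limma, adjusted p = 0.000452). Ddit4, an inhibitor of mTOR signalling, gave 553 and 532 in Flk1-positive cells against 2721 and 2970 in WT embryos, and fell by 2.34 ± 0.14 (limma, adjusted p = 0.000512). Gadd45a, a growth arrest gene, gave 168 and 189.8 against 636 and 774 and fell by 1.85 ± 0.15 (limma, adjusted p = 0.00113). These 3 kept their calls against WT in every alternative run, and Sesn1 and Polk (higher) and Perp (lower) did not.

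Of all genes, 12.5% were called higher than in WT embryos and 18% lower. Other BCL2 family genes had 2 of 14 higher (Bik and Bcl2) and 3 lower (Bmf, Bnip3 and Bcl2l2). Without single arrays these became 0 to 2 higher and 1 to 3 lower. Bmf, like Pmaip1 a BH3-only gene, fell by 1.44 ± 0.12 (limma, adjusted p = 0.00124) and kept its call in every alternative. Of 17 caspases and execution genes, 2 were higher and 1 lower. The higher were Xiap and Cflar, both of which restrain caspases, and the lower was Diablo, which counters Xiap. Each lost its call in at least 1 alternative. Regulators of p53 had 0 of 13 higher and 2 lower (at most 6 lower under other settings), with a median of -0.47. One was Trp53bp1, which binds p53 and damaged chromatin, at -1.02 ± 0.13 (limma, adjusted p = 0.00491), and the other was Trp63, at least 1.22-fold lower (limma, adjusted p = 0.00673).

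All 12 unfolded protein and amino acid stress genes had higher signals on both Flk1-positive arrays than on both WT arrays, which 31.3% of all probe sets had. Of these 12, 7 were called, where 12.5% of all genes were called higher, and their median was 0.67. The 7 became 3 to 7 without single arrays and at most 10 under the other settings. Atf3 gave 1254 and 1329 in Flk1-positive cells and rose by 2.39 ± 0.14 (limma, adjusted p = 0.00051). Ppp1r15a, the phosphatase subunit that ends this response, gave 1985 and 1715 against 381 and 293 in WT and rose by 2.39 ± 0.17 (limma, adjusted p = 0.000769). Both kept their calls in every alternative, and Ddit3, at 1.08 ± 0.23, did not. Of 8 oxidative stress genes, Hmox1, which breaks down haem, and Gclm, of glutathione synthesis, were higher and Srxn1 was lower, and of these only Hmox1 kept its call in every alternative, at 1.34 ± 0.19 (limma, adjusted p = 0.00636). Endothelial (12 of 12), primitive erythroid (6 of 6) and other blood markers (6 of 6) were also called higher in Flk1-positive cells, and their part was not tested.

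**Figure D3:**
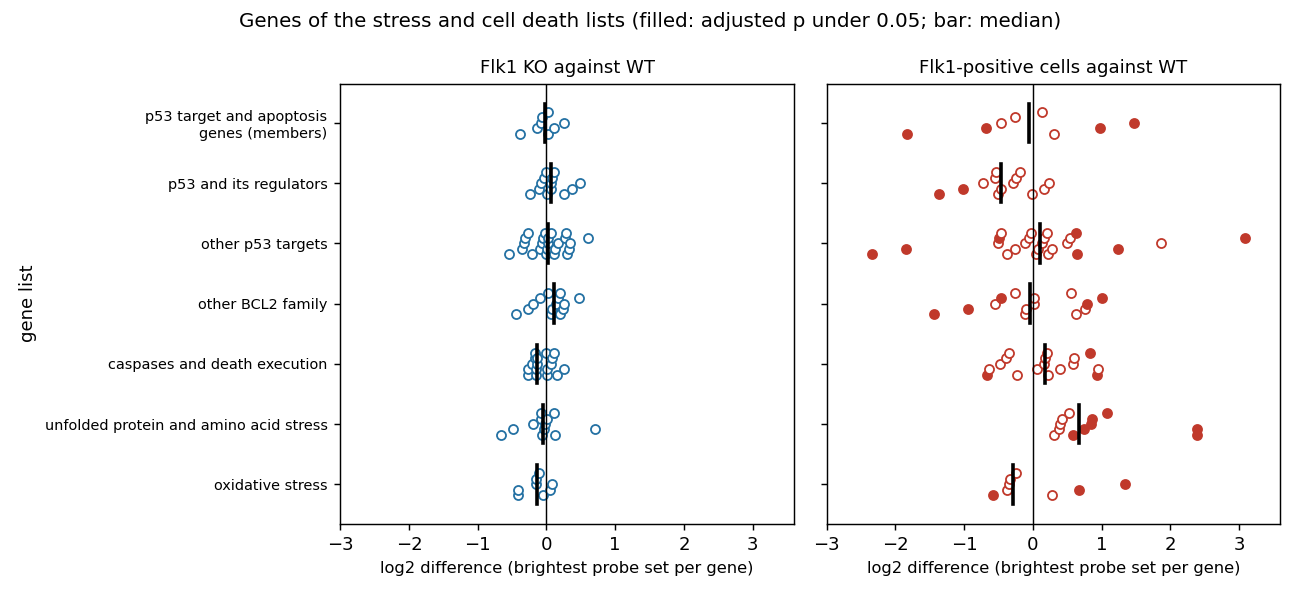
Log2 difference from WT embryos of each tested gene (brightest probe set) in the list of the members and in 6 further lists; filled points had an adjusted p under 0.05 and bars are list medians. Flk1 KO points (left) lie between -0.65 and 0.71 and none is filled, while those of Flk1-positive cells (right) reach from -2.34 to 3.09.

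Likeness of pattern was measured as the mean absolute difference of log2 values, each gene centred on its mean over the 6 arrays, among 12451 genes. Nearest to Cdkn1a were Mrpl28 (0.014), Ldah (0.0187) and Ap4s1 (0.0198). Nearest to Pmaip1 were Eps8 (0.0576), Matn2 (0.0856) and Acsl6 (0.0933). Nearest to Eda2r were Rin1 (0.0913), Enpp4 (0.093) and St3gal6 (0.0986). Over the 6 arrays Cdkn1a ranged by 0.38 (log2), Pmaip1 by 1.99 and Eda2r by 1.89. Distances to different members are therefore not comparable, and a small one to Cdkn1a is met by any gene that varies little. Eps8 gave 102 and 126 in Flk1-positive cells, 288 and 515 in KO and 514 and 460.0 in WT embryos. Its first KO array was the lower of that pair, as for Pmaip1, which follows from choosing genes by likeness over these same arrays.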

How the data were processed

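RNA from 6 samples was labelled with biotin and hybridised to Affymetrix arrays, per the labels' protocols. The deposited values are linear probe-set intensities. No source used here names the program behind them. Trimmed by 2% at each end, every array averaged 500.003, and the lowest value was 1, so the authors deposited them already scaled. Of the probe sets, 34958 had 1 gene symbol, 932 several and 9211 none, and only the first were named.

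Values were transformed as log2(signal + 21.61), the 25th percentile of all values, on the deposited scale, since array medians lay within 0.147. Folds and intervals are therefore ratios of signal + 21.61, and they understate ratios of signal, most for dim probe sets. After removal of 64 control probe sets and those with a mean log2 value below that of the 25th percentile, 33820 probe sets of 14961 genes were fitted with group as the only term, all 6 arrays together (limma 3.58.1 in R 4.3.3, two-sided; degrees of freedom 3 residual and 2.49 prior). P-values were adjusted by Benjamini-Hochberg over all of them, and called means below 0.05. Background was the 95th percentile of the receptor probe sets; a group mean below it gives only a bound on the fold, with each dim array set at the higher of its own value and background. A gene was represented by its brightest probe set. The procedure was tested on simulated data. Figures used matplotlib 3.10.9 in Python 3.11.15.

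The members, the 6 further lists and the marker lists were chosen with earlier results of these data known. The text names all members, Kdr, Trp53 and Mdm4, up to 3 called genes of each list in each direction by size, or the 2 largest where none was called, and the 3 nearest patterns of 3 members; Chac1 was named after its value was seen. The alternatives were the pseudocount, the filter, quantile normalization or median centring, a robust prior with a trend on intensity, a fit on the compared groups alone, the replicate number as a block, the brightest probe set per gene, a lower background level and leaving out each array. Zmat3, Pmaip1 and Trp53inp1 were not matched in the RefSeq promoter table. Listed genes that were not matched to a probe set are not analysed here.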

Additional observations from a re-analysis of the deposited data

How the results depend on the processing

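Between Flk1 KO and WT embryos 0 of the members was called in every alternative run. The number of their intervals within 2-fold, a measure chosen after seeing the data, was 12 and stayed between 9 and 12, with 9 to 11 when single arrays were left out. Against WT embryos, 6 member probe sets were called in Flk1-positive cells, 4 to 7 under other settings and 2 to 6 without single arrays: 2 without Flk1-positive replicate 1, Flk1-positive replicate 2 or WT replicate 1, and 3 without WT replicate 2. Against KO embryos the 6 became 4 to 8, and 4 to 6 without single arrays. Over all probe sets the 27 called between KO and WT embryos became 0 with the 10th percentile as pseudocount, with only the groups compared, with the replicate block and without any single array. They became 74 with the median as pseudocount, 7 without a filter, 94 with the filter at the median, 12 with quantile normalization, 14 with median centring, 134 with an intensity trend and 38 with 1 probe set per gene. The 8799 called in Flk1-positive cells against WT became 5284 with 1 probe set per gene and 4352 to 8927 without single arrays. The 9870 against KO became 5531 with 1 probe set per gene and 5968 to 7823 without single arrays. The cause of these shifts was not tested, except that 1 probe set per gene tests fewer features.

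Median centring moved the median KO difference of all probe sets by 0.101 (log2), from -0.02 to 0.08. No value that changed sign passed the test. KO minus WT became 0.019 for the brightest Ccng1 probe set, 0.040 for Eda2r and 0.039 for the second Mdm2 probe set under median centring. Quantile normalization gave -0.0079 for Ccng1 1450016_at, 0.037 for Eda2r and -0.0063 for the brighter Trp53inp1 probe set. The dimmer Trp53inp1 probe set in Flk1-positive cells against WT gave 0.0014 with the median as pseudocount, 0.039 with quantile normalization and 0.040 with median centring. Without single arrays, KO minus WT ran from -0.38 to 0.21, -0.15 to 0.17 and -0.38 to 0.085 for Ccng1, -0.0098 to 0.066 for Cdkn1a, -0.37 to 0.25 for Eda2r, -0.29 to 0.034 for the brighter Mdm2 probe set, and -0.18 to 0.22 and -0.043 to 0.42 for Trp53inp1. In Flk1-positive cells, Bbc3 ran from -0.089 to 0.36 against WT and -0.34 to 0.11 against KO, and the dimmer Trp53inp1 probe set from -0.33 to 0.32 and -0.52 to 0.13.

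Deviations of samples with the same replicate number correlated at 0.0286, 0.00793 and 0.0223 across the 3 pairs of groups, so no strong shift over all probe sets was shared by number. This cannot tell whether samples with equal numbers shared a litter or batch. With the replicate block, 0, 5 and 6 member probe sets were called in KO against WT, Flk1-positive cells against WT and against KO. With 2 arrays a group, signal near background limits Eda2r and the dimmer Trp53inp1 probe set most, and small changes of any member were not detectable. With the background level at the 90th instead of the 95th percentile of the receptor probe sets, 60.6% of probe sets lay above it rather than 55.57%.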
